A study of Mus musculus with 6 samples.

Results

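The neuropeptides described here mark subtypes of enteric neurons, the nerve cells of the gut wall, and were measured in cells sorted from the mouse colon. The 8 genes, Grp, Nmu, Sst, Cartpt, Calca, Calcb, Cck and Nmb, were chosen by what their peptides mark (sensory, descending and viscerofugal neurons), with the values of these 6 libraries already known. Each gene was taken with all probe sets that carry its symbol alone, which gave 1 probe set each for 7 of the 8 genes among 18193 genes measured. No probe set was matched to Calca in the platform annotation used here, so Calca has no value. Because the choice was made with the values in view, the values of the members are a description.

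The data are 6 arrays of RNA from cells of the myenteric plexus of the colon, the nerve network between the muscle layers. All came from mice of the strain Mapttm1(EGFP)Klt/J, in which EGFP is expressed from the locus of the microtubule protein tau, a gene active in neurons. All the mice had also been given a fluorescent cholera toxin subunit (CTB-AF647) in the celiac ganglion under pentobarbital and were killed 3 to 4 days later, so that both groups share the surgery and the tracer. The groups are 3 libraries of sorted Mapt-EGFP+ cells, labelled colonic neurons, and 3 libraries of Mapt-EGFP- myenteric cells. Each library pooled cells of 2, 4 or 6 mice, without a statement of which had which number, and age and sex are not given in the labels. Values are log2 expression values as deposited, in the order of replicates 1, 2 and 3.

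Neuropeptides are made as longer precursors that are cut in the secretory pathway, stored in dense-core vesicles and released with the small transmitters of the same neuron. They act on G-protein-coupled receptors of muscle, epithelium, vessels, glia and other neurons. In the gut wall, calcitonin gene-related peptide and neuromedin U are used as markers of intrinsic sensory neurons and somatostatin of descending interneurons. Gastrin-releasing peptide, cholecystokinin and CART occur among interneurons and viscerofugal neurons, whose axons leave the gut for the celiac ganglion. Somatostatin and cholecystokinin are also hormones of endocrine cells of the gut epithelium.

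The label EGFP-positive was borne out by neuronal markers in 1 of its 3 libraries. Of 16 pan-neuronal genes, 16 had their highest value in EGFP-positive replicate 3, a library that held the highest value of 19.6% of all genes. Their mean was 3.13, 3.15 and 6.56 under the EGFP-positive label and 3.32, 3.54 and 3.81 under the EGFP-negative one. Mapt, whose locus drives the EGFP, read 1.43, 1.32 and 5.55 against 1.44, 1.64 and 1.38. These values are of 1 of its 4 probe sets, the one with the highest mean, and the others are not given here. On this probe set Mapt was thus in the TrpnX range in EGFP-positive replicates 1 and 2. This goes against their label only if Mapt RNA follows EGFP in this strain, which was not tested. Of 8 macrophage genes 4, and of 7 lymphocyte and plasma cell genes 6, were lower in each EGFP-positive library than in every EGFP-negative one. Of 6 measured glial genes 3 were higher in that way, and 0 genes of these lists had the opposite order. Of the 16 pan-neuronal genes 0 had groups apart, where 9.11% of all genes did. Whether samples or sorted fractions were exchanged was not tested, and every difference between the labels holds only as far as the labels do. Among the pan-neuronal genes Stmn2 was high in every library, at 6.95, 7.12 and 7.77 against 7.06, 7.13 and 6.01. Elavl4, a neuronal RNA-binding protein, read 1.81, 2.24 and 7.48 against 2.77, 2.83 and 3.46. Replicate 3 is therefore given apart throughout, and directions refer to the labels. Control probe sets for the bacterial transcript TrpnX read 1.00 to 1.48, and values in or below that range are taken as background. In these bulk libraries fewer cells of a type and less RNA per cell cannot be told apart.

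Within the group, 5 peptides were highest in the same library and 2 stayed dim. Grp, Nmu, Sst, Cartpt and Calcb each had their highest value in EGFP-positive replicate 3, while EGFP-positive replicates 1 and 2 were mostly at or under the level of the EGFP-negative libraries. Cck and Nmb did not exceed 3.16 in any of the 6 libraries and had their highest value in an EGFP-negative library.

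**Figure D1:**
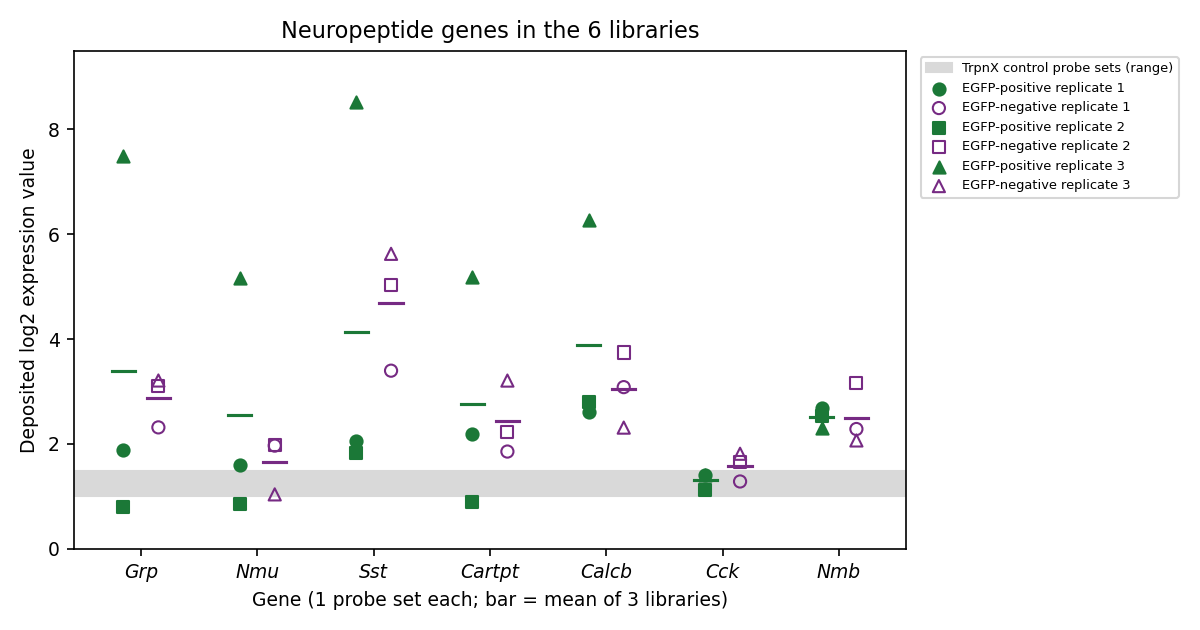
Deposited log2 values (vertical axis) of the 7 measured neuropeptide genes in each of the 6 libraries, with filled green symbols for EGFP-positive, open purple symbols for EGFP-negative, shapes for replicates 1 to 3, bars for group means and a grey band for the TrpnX control range. The green triangle of EGFP-positive replicate 3 is the highest point for Grp (7.50), Nmu (5.17), Sst (8.52), Cartpt (5.18) and Calcb (6.27), but not for Cck (1.40) or Nmb (2.31).

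Promoter sequence is shown for Sst, Cartpt and Nmu, members that were high in EGFP-positive replicate 3, and for Cck, which was not. The windows are the 250 bases before the annotated gene start, on the strand of the gene, from RefSeq (GRCm38.p6). They were taken for 6 of the 8 genes (Nmu, Sst, Cartpt, Calca, Cck and Nmb), and not for Grp or Calcb. Capitals mark the cAMP response element TGACGTCA, to which factors of the CREB family bind, or its core TGACG, read on either strand. The windows are chr16:23890845-23891094 on the minus strand for Sst, chr13:99900684-99900933 on the minus strand for Cartpt, chr5:76363778-76364027 on the minus strand for Nmu, and chr9:121495695-121495944 on the minus strand for Cck.
Sst: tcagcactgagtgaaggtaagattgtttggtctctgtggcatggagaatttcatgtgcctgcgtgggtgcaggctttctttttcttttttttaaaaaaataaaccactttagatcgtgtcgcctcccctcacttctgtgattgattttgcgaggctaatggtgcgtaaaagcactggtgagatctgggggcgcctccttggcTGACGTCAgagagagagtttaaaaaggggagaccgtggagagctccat
Cartpt: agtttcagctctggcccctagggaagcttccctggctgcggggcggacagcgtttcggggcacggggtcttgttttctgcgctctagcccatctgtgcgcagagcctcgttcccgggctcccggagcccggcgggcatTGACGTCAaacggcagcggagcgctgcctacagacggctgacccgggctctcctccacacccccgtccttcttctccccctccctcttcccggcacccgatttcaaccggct
Nmu: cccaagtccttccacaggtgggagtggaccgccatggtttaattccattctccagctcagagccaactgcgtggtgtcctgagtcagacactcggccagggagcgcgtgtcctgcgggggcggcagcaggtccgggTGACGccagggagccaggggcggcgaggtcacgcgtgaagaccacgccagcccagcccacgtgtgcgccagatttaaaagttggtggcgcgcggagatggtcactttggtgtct
Cck: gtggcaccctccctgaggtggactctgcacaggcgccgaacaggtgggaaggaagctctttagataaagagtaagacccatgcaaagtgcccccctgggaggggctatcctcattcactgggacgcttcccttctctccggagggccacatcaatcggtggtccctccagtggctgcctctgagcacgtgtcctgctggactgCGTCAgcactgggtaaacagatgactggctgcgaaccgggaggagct

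The full element starts 48 bases before the start of Sst and 112 bases before that of Cartpt. It was found in these 2 of the 6 members with a window, and in 1.55% of the 32851 promoter windows of the same length. The core, which the full element contains on each strand, was found in 5 of the 6 members and in 17.8% of all windows. In Cck it lies on the reverse strand, 47 bases before the start. In Nmu it starts 114 bases and in Calca 65 bases before the start, and the Nmb window held none. An E-box (CANNTG, either strand) was found in 5 of the 6 members and in 66.2% of all windows. The Nmu window thus held the core but not the full element. Whether the element bears on the expression values was not tested. These matches describe letters only, and binding was not measured in this series.

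Among the peptides used as sensory markers, neuromedin U was high in replicate 3 and at or a little above background elsewhere. Nmu, whose peptide also acts on immune cells and smooth muscle, read 1.60, 0.86 and 5.17 under the EGFP-positive label and 1.97, 1.98 and 1.04 under the EGFP-negative one. A single library was high, the other 5 lay at 1.98 or lower, and the groups overlapped. The log2 difference of the group means was 0.88 (SE 1.16), and without EGFP-positive replicate 3 it was -0.43. EGFP-positive replicate 3 stood 3.20 above the next highest library, a gap that 52 of the 18193 genes reached or exceeded. As the members were chosen and this library set apart with the values known, nothing is read from such counts.

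Calcb, which encodes the beta form of calcitonin gene-related peptide, a vasodilator and sensory transmitter, read 2.60, 2.79 and 6.27 against 3.08, 3.74 and 2.31. Again replicate 3 alone was high, and the other libraries, which lay above the TrpnX range, differed among themselves by 1.43. The log2 difference was 0.84 (SE 1.07) and turned to -0.35 without EGFP-positive replicate 3. Calca, the neighbouring gene that encodes the alpha form of the peptide and calcitonin, has a closely related sequence, and whether the Calcb probe set also detects its RNA was not tested.

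Gastrin-releasing peptide had the widest separation of replicate 3 in the group. Grp, the mammalian counterpart of bombesin, which excites smooth muscle and stimulates gastrin release, read 1.89, 0.80 and 7.50 against 2.32, 3.11 and 3.21. EGFP-positive replicate 3 was 4.29 above the next highest library. As a description only, 12 of 18193 genes had a gap of that size or more. EGFP-positive replicates 1 and 2 lay under all 3 EGFP-negative libraries, and the value of replicate 2 was under the TrpnX range, where sizes of differences cannot be read. The log2 difference of the means was 0.52 (SE 1.78) over all libraries and -1.54 without EGFP-positive replicate 3.

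Somatostatin was the member with the clearest signal in the EGFP-negative libraries. Sst, an inhibitory peptide of neurons and endocrine cells, read 2.06, 1.82 and 8.52 under the EGFP-positive label and 3.40, 5.03 and 5.63 under the EGFP-negative one. The 2 lowest values and the highest value of the 6 thus all carried the EGFP-positive label. The log2 difference was -0.55 (SE 1.94). It was -2.75 without EGFP-positive replicate 3, 0.48 without EGFP-positive replicate 1 and 0.60 without EGFP-positive replicate 2.

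Because endocrine cells of the epithelium also make somatostatin, genes of endocrine cells are given beside it. No gene of this list marks the somatostatin-making endocrine cells in particular, so these values do not measure those cells. Of 10 enteroendocrine genes 9 were measured, and their mean was 2.19, 2.99 and 1.82 under the EGFP-positive label and 1.89, 2.74 and 1.55 under the EGFP-negative one. Pyy, the hormone peptide YY, read 5.83, 6.95 and 2.68 against 2.81, 6.12 and 2.15, and Insl5, a hormone of colonic L cells, read 2.66, 5.97 and 0.84 against 2.17, 5.69 and 2.10. Both were highest in replicate 2 of either label, and in the libraries with the 2 highest Sst values, EGFP-positive replicate 3 and EGFP-negative replicate 3, Pyy had its 2 lowest values. EGFP-negative replicate 2, with the third highest Sst value (5.03), had the second highest value of both Pyy and Insl5. The part of endocrine cells in the Sst values was not tested. Gcg stayed at 2.62 or lower and Tph1 at 1.86 or lower. Chga, a granin that neurons also make, was the 1 of the 9 that was highest in EGFP-positive replicate 3, at 4.56.

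CART, encoded by Cartpt, was also highest in EGFP-positive replicate 3, but at a smaller distance. It read 2.20, 0.89 and 5.18 against 1.86, 2.23 and 3.21, so that the next highest value was in EGFP-negative replicate 3, 1.97 lower. The log2 difference was 0.32 (SE 1.13), and -0.89 without EGFP-positive replicate 3. With array weights the sign of the difference also turned for Cartpt (-0.64) and for Grp (-0.95), and the differences were 0.021 for Nmu, 0.083 for Calcb and -2.09 for Sst.

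Cholecystokinin and neuromedin B gave no readable difference. Cck, a peptide of interneurons and of epithelial I cells, read 1.40, 1.13 and 1.40 against 1.28, 1.65 and 1.81, at or just above the TrpnX range. Nmb, a bombesin-like peptide related to Grp, read 2.69, 2.54 and 2.31 against 2.29, 3.16 and 2.07. The Nmb means differed by 0.0096 (SE 0.31), with replicate 3 the lowest of its group, and those of Cck by -0.27 (SE 0.18). Nmb was dim but above the TrpnX range in all 6 libraries. At values such as those of Cck a transcript that is absent and one that its probe set does not detect look alike.

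Across the group as a whole, none of the 7 measured members passed the test between the labels. In the comparison over all genes (limma, Benjamini-Hochberg adjustment), 0 of 7 members passed at an adjusted p of 0.05, and 0% of all 18193 genes did. At an unadjusted p under 0.05 there were 0 members and 893 genes. The groups of 0 of the 7 members did not overlap, where 9.11% of all genes had groups apart. The median log2 difference was 0.32 over the 7 members and -0.017 over all genes. EGFP-positive replicate 3 stood at least 2 log2 units above every other library for 4 members (Grp, Nmu, Sst and Calcb) and for 1.14% of all genes. Cartpt, at 1.97, lay just under that size. Since replicate 3 was set apart with its values known, nothing is read from these counts.

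**Figure D2:**
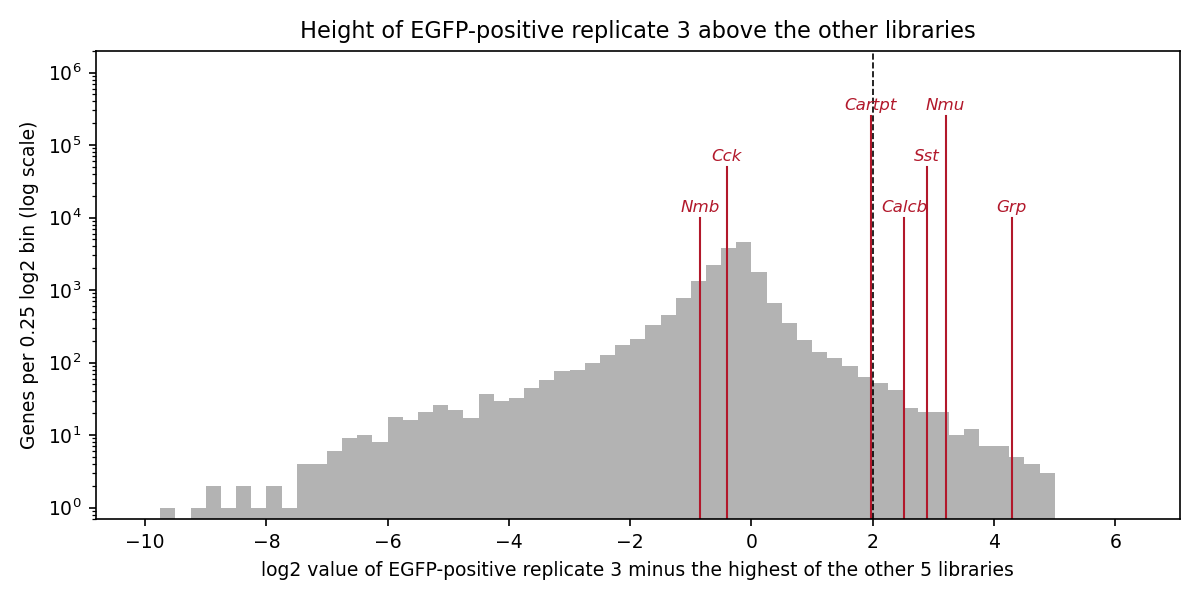
Distribution over 18193 genes of the log2 value of EGFP-positive replicate 3 minus the highest of the other 5 libraries (horizontal axis), as genes per bin of 0.25 on a log axis; the dashed line marks 2, and red lines mark the 7 members. Grp lies at 4.29, Nmu at 3.20, Sst at 2.89, Calcb at 2.52 and Cartpt at 1.97, while Cck (-0.41) and Nmb (-0.85) lie below 0.

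Same-numbered libraries of the 2 labels deviated together over all genes, so differences within a number were read too. With the number 3 the EGFP-positive library was higher by 4.29 for Grp, 4.14 for Nmu, 3.95 for Calcb, 2.89 for Sst and 1.97 for Cartpt. With the number 2 it was lower for all 5, with differences of -2.31 for Grp, -1.12 for Nmu, -0.95 for Calcb, -3.21 for Sst and -1.35 for Cartpt. With the number 1 it was lower for Grp (-0.43), Nmu (-0.37), Calcb (-0.48) and Sst (-1.34), and higher for Cartpt (0.34). The values of Grp, Nmu and Cartpt in EGFP-positive replicate 2 were under the TrpnX range, and that of Nmu in EGFP-negative replicate 3 was in it, so for these the sizes cannot be read. The 5 are the members highest in EGFP-positive replicate 3, so their positive direction in the third number was fixed in advance. Its contrast with the second number is therefore not a result. The pan-neuronal mean differed by -0.19, -0.39 and 2.75 within the numbers 1, 2 and 3, that of enteric glia by 1.53, 0.16 and 2.73, and that of macrophage genes by -2.03, -5.48 and -4.96. The part of these cell types in the peptide values was not tested.

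**Figure D3:**
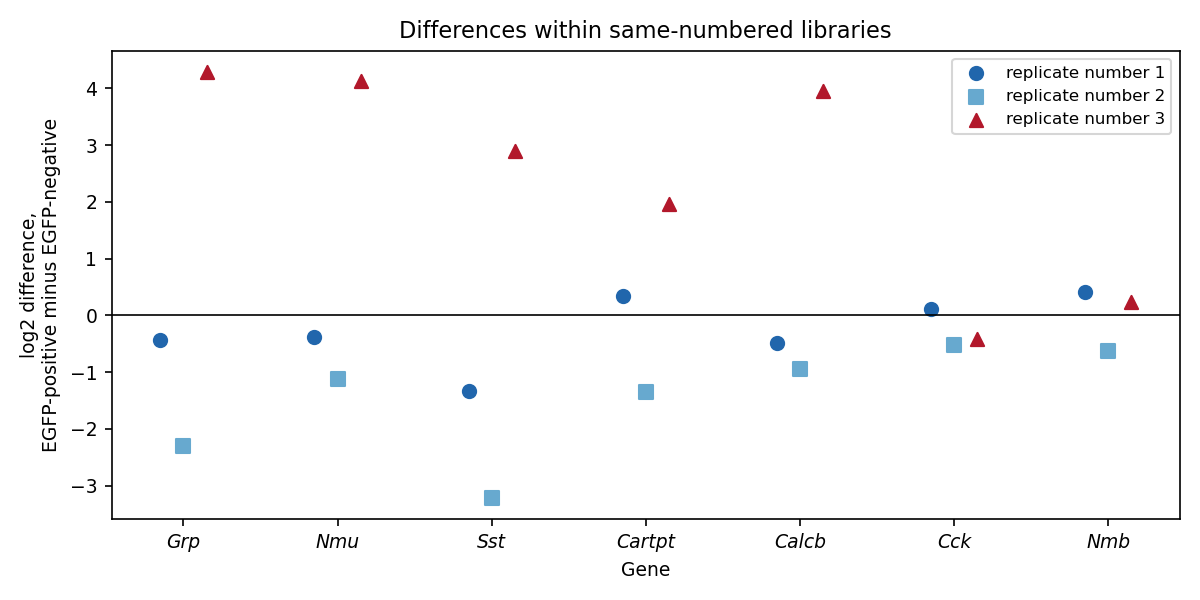
Log2 difference, EGFP-positive minus EGFP-negative, within each replicate number (circles 1, squares 2, triangles 3) for the 7 measured members; the line marks 0. For Grp, Nmu, Sst, Cartpt and Calcb the triangle lies between 1.97 and 4.29 and the square between -3.21 and -0.95.

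Without replicate 3, the members still differed in how they ranked between the labels. Grp and Sst were lower in EGFP-positive replicates 1 and 2 than in all 3 EGFP-negative libraries, which makes 2 of 7 members against 9.67% of all genes. Of the 16 pan-neuronal genes 5 had that order, and of 6 measured glial genes 0 did. Over the 5 libraries without EGFP-positive replicate 3, the Pearson correlations of the members with each other ran from -0.26 (Cartpt with Calcb) to 0.93 (Grp with Sst, and Cartpt with Cck). Cck, at or just above the TrpnX range, gave 0.91 with Grp and 0.90 with Sst, so that no set of members is read from these values. Such correlations over 5 or 6 libraries are a description, and the genes share the libraries and their composition.

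The genes whose profiles were most like each peptide were searched among 1204 or 1205 genes that ranged over at least 2 and reached at least 6. Several of those named, such as Calb2, Pirt and Snap91, reached 6 only in EGFP-positive replicate 3, so a high correlation was largely set by that library. An r of at least 0.95 was reached by 27 genes for Grp, 20 for Nmu, 11 for Calcb, 7 for Sst and 6 for Cartpt. Grp was nearest to Calb2, the calcium-binding protein calretinin (r = 0.99 over 6 libraries, 0.93 without EGFP-positive replicate 3), to Pirt (0.98) and to Bex2 (0.98). Sst was nearest to Zcchc18 (0.96), Calb2 (0.96, and 0.97 without that library) and Fgf13 (0.96). Calb2 was among the 3 nearest genes of both, and nothing is read from this. Nmu was nearest to Arvcf, a catenin-family protein (0.99), Chd5 (0.99) and Fstl5 (0.98), and Calcb to Pou3f3, a transcription factor (0.98), Arvcf (0.97) and Snap91 (0.96). Cartpt was nearest to the neurofilament gene Nefl (0.97), to Grp (0.97) and to Fbxl16 (0.96). A single high library sets much of these values, and without it the correlation of Calcb with Snap91 was 0.55.

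Some other genes that define enteric neuron subtypes were also highest in EGFP-positive replicate 3. Of 16 such genes 10 had their highest value in EGFP-positive replicate 3, 4 of them by at least 2, and 7 stayed below 3 in all libraries. The 10 include the cholinergic genes Chat, at most 1.54, and Slc18a3, at most 1.21, which were in or near the TrpnX range everywhere. Slc5a7, also cholinergic, stayed at 1.16 or lower. The 4 with the widest range were Vip, Htr3a, Nos1 and Calb2. Htr3a, a serotonin receptor subunit, read 1.20, 1.30 and 6.68 against 1.67, 1.84 and 1.87. Nos1, the neuronal nitric oxide synthase of inhibitory neurons, read 2.59, 2.80 and 7.74 against 2.69, 3.44 and 4.26. Another probe set of Nos1 read 7.95 in EGFP-positive replicate 3, and its remaining ones stayed at 1.77 or lower in all libraries. Calb2 read 2.37, 2.27 and 7.09 against 3.13, 3.90 and 3.70, with the order of Grp between the labels. Vip, an inhibitory neuropeptide, was above 6 in 5 of the 6 libraries, at 6.12, 6.95 and 9.18 against 3.14, 7.36 and 6.77. Of the 16 genes, 0 passed (limma, adjusted over all genes).

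**Figure D4:**
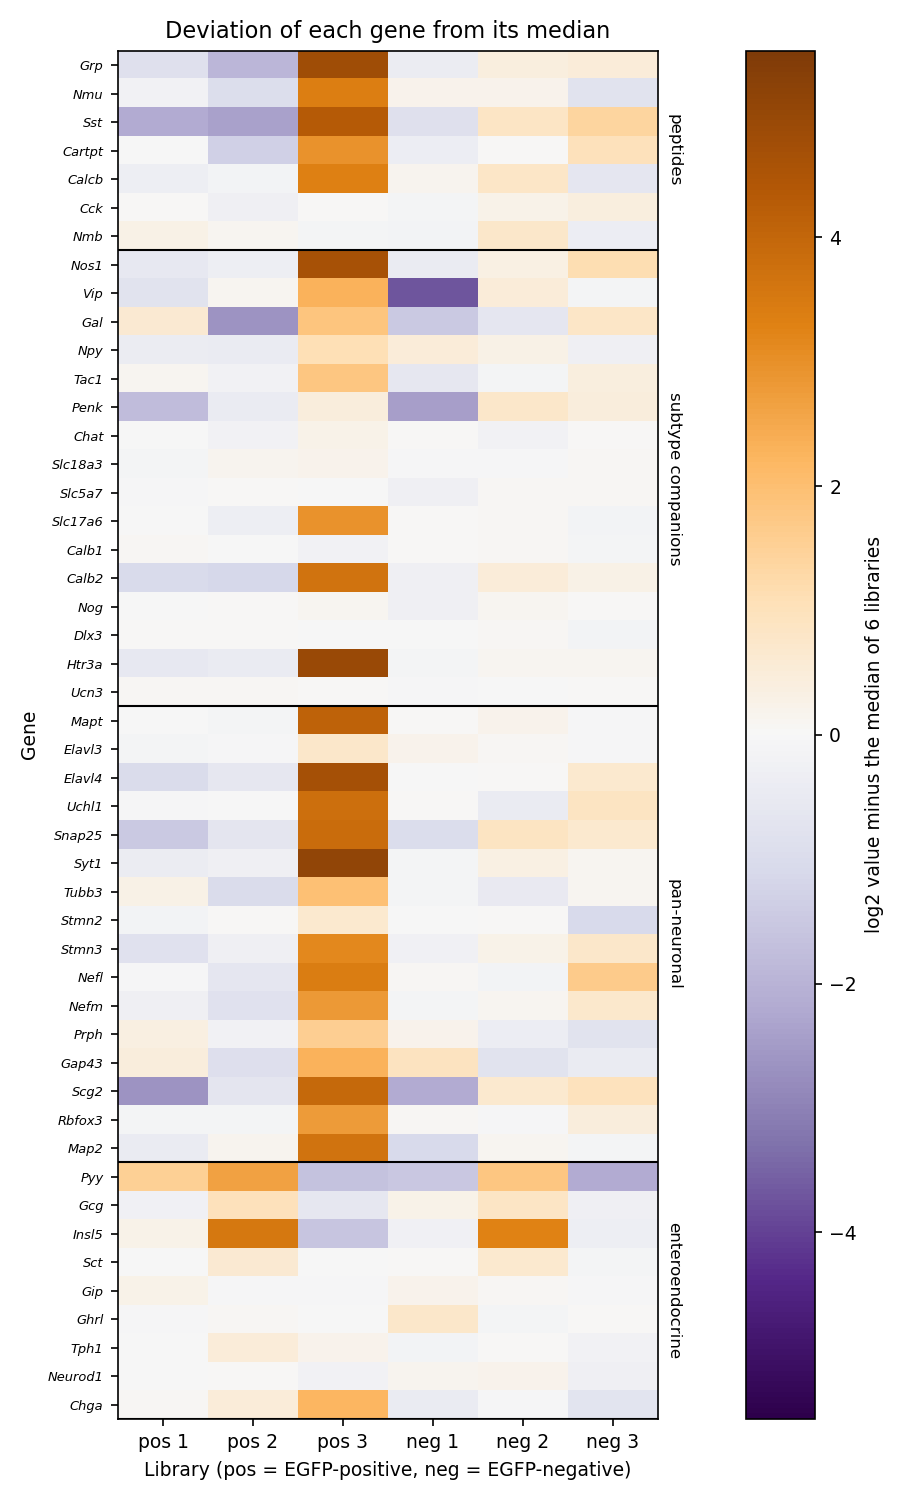
Log2 value minus the median of the 6 libraries (colour, orange above and purple below the median) for 7 neuropeptide genes, 16 subtype companion genes, 16 pan-neuronal genes and 9 enteroendocrine genes (rows) in the 3 EGFP-positive (pos) and 3 EGFP-negative (neg) libraries (columns). In the column of EGFP-positive replicate 3 the 5 peptides and the pan-neuronal genes lie above their medians, only a little for Stmn2 and Elavl3. Pyy and Insl5 are orange in replicate 2 of both labels.

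On the receiving side, 3 of 17 receptor genes reached a value of 6, namely Calcrl, Ramp1 and Ramp2. Calcrl, the receptor that binds the peptide together with the membrane protein Ramp1, read 6.23, 7.91 and 6.42 against 6.54, 7.30 and 7.56. Ramp1 read 6.85, 6.78 and 7.31 against 6.40, 7.81 and 7.25, and Ramp2, which turns Calcrl into an adrenomedullin receptor, read 7.32, 7.54 and 6.13 against 7.06, 7.83 and 7.12. These 3 genes were far above the TrpnX range in both groups, the groups overlapped, and EGFP-positive replicate 3 did not stand above the other libraries as it did for the peptides. For Ramp2 it was the lowest library, at 6.13 against 7.06 to 7.83 in the others. The other 2 probe sets of Calcrl stayed at 1.66 or lower, so its level rests on 1 of 3 probe sets. The same holds for Ramp1, whose other probe sets reached at most 3.08 and 1.49.

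The other receptors were dim. Of the 17 receptor genes 12 stayed below 3 in all libraries, among them Grpr and Nmbr for the bombesin-like peptides, Nmur1 and Nmur2 for neuromedin U, Cckar and Cckbr for cholecystokinin, and the somatostatin receptors Sstr1, Sstr2, Sstr3 and Sstr5. Sstr4 reached 3.33 and Ramp3 3.80, both in EGFP-positive replicate 3. The other probe set of Sstr4 stayed at 1.22 or lower. Of the 17 genes 0 passed over all genes (limma, adjusted p), 0 had an unadjusted p under 0.05 and 0 had groups that did not overlap. Over all 18193 genes 893 had such a p and 9.11% had groups apart, so the receptors are not shown to differ from other genes in this. Their median log2 difference was -0.092, against -0.017 over all genes. An undetected receptor may be expressed below what its probe set detects.

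**Figure D5:**
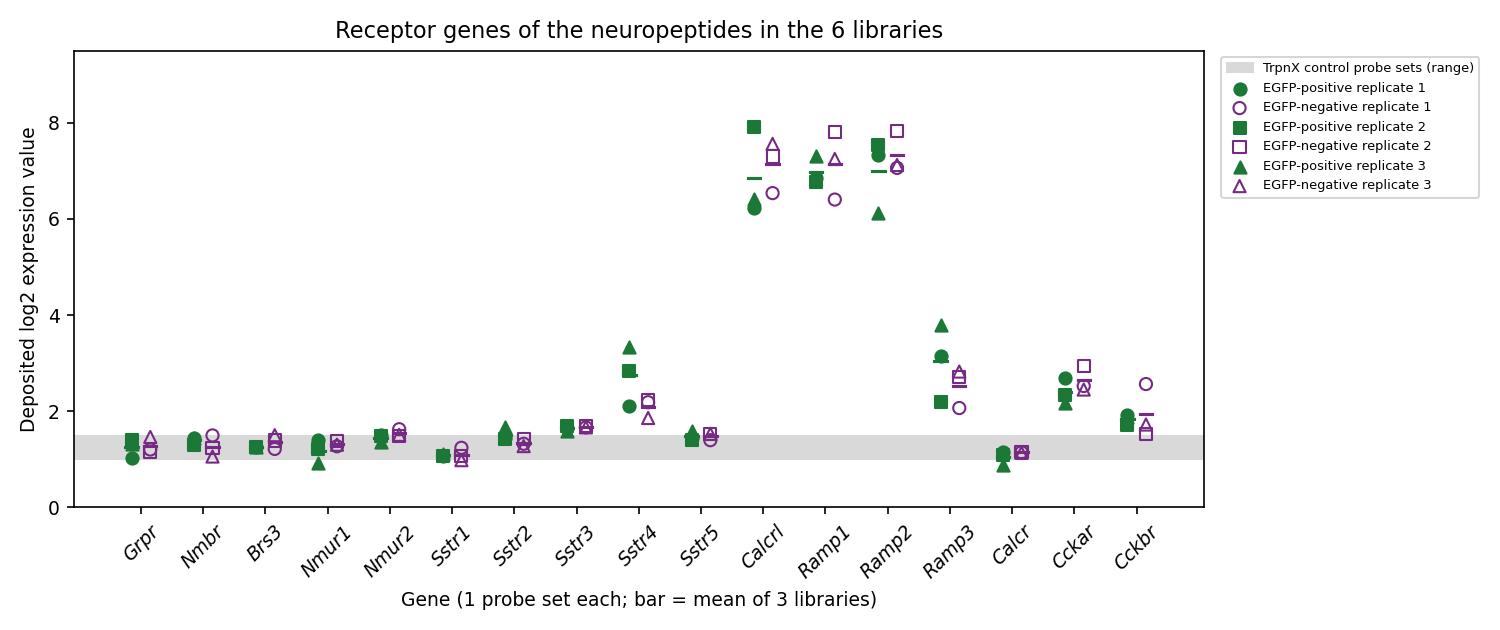
Deposited log2 values (vertical axis) of 17 receptor genes of the neuropeptides in each of the 6 libraries, with filled green symbols for EGFP-positive, open purple symbols for EGFP-negative, shapes for replicates 1 to 3, bars for group means and a grey band for the TrpnX control range. Calcrl, Ramp1 and Ramp2 lie between 6.13 and 7.91 in all libraries, and 12 of the 17 genes stay below 3.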

How the data were processed

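RNA of 6 libraries, from about 50 ng of total RNA each per the labels' protocols, was measured on Affymetrix Mouse Genome 430.2 GeneChips, 1 array per library. Each deposited log2 value is the level of a probe set on an array, which the authors computed with RMA per the submitters' processing notes. For RMA, version and settings: not given in the sources used here. Array medians of 1.91 to 1.99 and unequal upper quartiles (4.08 to 4.86) leave the method uncertain, so dim values carry little weight. Precision is limited by the number of arrays.

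Of 45101 probe sets, 34945 had 1 symbol in the platform annotation, 932 had several and 9160 had none, beside 64 controls. A gene was its 1-symbol probe set with the highest mean, which gave 18193 genes. A linear model was fitted to all genes (limma 3.58.1, R 4.3.3, lmFit and eBayes, two-sided, Benjamini-Hochberg adjustment over all genes, threshold 0.05), a script tested on simulated data. Differences are EGFP-positive minus EGFP-negative, and their SE is from this fit. Each library pools mice, and p-values cover only the spread between the 6 pools. Per-sample columns not used number 0. Tables and figures used Python 3.11.15, pandas 2.3.3 and matplotlib 3.10.9.

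Members and lists were chosen with earlier results of these data known. The rule named all members, receptors that reached 6 or whose groups did not overlap, the 4 of 16 companion genes with the widest range, and for each member that ranged over at least 2 and reached 5 the 3 genes with the highest Pearson correlation. Other receptors, enteroendocrine genes, Elavl3, Elavl4, Stmn2, Chat, Slc18a3 and Slc5a7 were named after their values were seen. The means of the lists for epithelium, lymphocytes, smooth muscle, fibroblast-like cells, Cajal cells, mesothelium and endothelium are given in the closing section. Replicate numbers paired the libraries only in the differences within a number and in an alternative fit with the number as a block. The SEs and p-values of the Results are from the fit without pairing. Deviations from the group means correlated by 0.36, 0.32 and 0.42 over genes for numbers 1, 2 and 3, although the labels do not state a shared origin. The effect of 15 alternatives is in the closing section.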

Additional observations from a re-analysis of the deposited data

How the results depend on the processing

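In 14 of 15 alternatives 0 genes passed, and without EGFP-positive replicate 1 there were 2, Fermt3 and Ccr2 (named after their values were seen), so that leaving out a replicate gave 0 to 2. With the replicate number as a block 0 of 18193 genes passed (1345 at an unadjusted p under 0.05), and the block changed no other call. With the block the SE was 1.42 for Grp, 1.19 for Nmu, 1.31 for Sst, 0.70 for Cartpt and 1.13 for Calcb. The receptors gave 0 calls in all 15. The number of genes whose groups did not overlap was 1658 of 18193 (9.11%). It was 866 of 7979 among genes that reached 5, and 3444 of 34945 probe sets with every probe set fitted. These counts are of different totals and are not compared as they stand. When a replicate was left out the number was 2815 to 3977 of 18193, where fewer libraries make overlap rarer. With array weights the log2 differences turned sign for Grp (-0.95), Cartpt (-0.64) and Nmb (-0.20), and came to 0.021 for Nmu, 0.083 for Calcb and -2.09 for Sst. Leaving out each replicate in turn gave ranges of -1.54 to 1.81 for Grp, -0.43 to 1.72 for Nmu, -2.75 to 0.60 for Sst, -0.89 to 1.25 for Cartpt, -0.35 to 1.48 for Calcb, -0.42 to -0.16 for Cck and -0.21 to 0.34 for Nmb. For Grp, Nmu, Cartpt and Calcb the sign turned only without EGFP-positive replicate 3 among these, for Sst only without EGFP-positive replicate 1 or 2, and for Nmb, whose difference was 0.0096, without either of these 2 or without EGFP-negative replicate 1 or 3. The cause of these changes was not tested. Cck and Nmb had no value among genes that reached 5.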

Other observations

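Marker genes of other cell types differed in level between the libraries. Epithelium genes averaged 7.16, 6.33 and 4.03 under the EGFP-positive label and 5.66, 6.10 and 4.66 under the EGFP-negative one, and mesothelium genes 9.48, 8.96 and 7.20 against 9.22, 8.55 and 7.47. Smooth muscle genes averaged 9.59, 9.08 and 11.09 against 10.04, 9.41 and 11.30, so that replicate 3 was highest under both labels. Fibroblast-like genes averaged 9.99 to 11.13 over the 6 libraries and the 2 measured genes of Cajal cells 5.96 to 8.52. Endothelium genes averaged 4.73 in EGFP-positive replicate 3, and from 5.79 upwards in the other libraries. Genes of lymphocytes and plasma cells averaged 2.28, 1.16 and 1.26 against 3.27, 5.13 and 5.91.

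The value 1.40 of Cck in EGFP-positive replicates 1 and 3 is the same deposited number in both. Of 45101 probe sets, 11507 (25.5%) held one value in 2 or more libraries, and 80.1% of these stayed below 3 in every library. Brs3, a receptor related to those of Grp and Nmb, held a single value, 1.25, in all 3 libraries labelled EGFP-positive.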
